A study of Mus musculus with 21 samples.

Results

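Nonlesional skin of *Ifnk* transgenic mice was compared with skin of wild-type mice, using 2 nonlesional *Ifnk* TG libraries (NL 2 and NL 3) and 3 WT libraries (WT 8, WT 9 and WT 10), 5 of the 21 libraries of the series, picked by their labels. All 5 came from 12-month-old mice that had received no UVB, labelled NoTx, and all belong to batch 1. The *Ifnk* TG animals carry *Ifnk* under the promoter of keratin 14, which is active in the basal layer of the epidermis and of hair follicles. The line was made with a PiggyBac vector on another mouse strain and then backcrossed to BALB/c over more than 8 generations. The WT mice are age-matched BALB/c. Whether parts of the original strain's genome remain in the *Ifnk* TG mice was not tested. The NL libraries were taken from *Ifnk* TG skin without lesions. The series also holds 4 libraries of lesional *Ifnk* TG skin (L 4 to L 7) and 12 of inguinal lymph nodes from untreated and UVB-treated mice. The study reports body weights of female and male mice, but does not give the sex of the mice used for skin sequencing. The sex, the body site and the animal behind each library are not labelled. Whether an NL and an L library came from the same mouse is not given. With 2 libraries against 3, an exact rank test of a single gene over its 10 arrangements cannot give a two-sided p below 0.2. The p-values given here therefore come from a fit across all genes.

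Interferon kappa is a type I interferon made mainly by keratinocytes. Type I interferons bind the receptor formed by *Ifnar1* and *Ifnar2*, whose kinases JAK1 and TYK2 pass the signal on to transcription factors. These bind a short DNA element, the ISRE, in front of interferon-stimulated genes such as *Isg15* and the *Ifit*, *Oas* and *Mx* families. The epidermis renews itself from a basal layer of dividing keratinocytes (*Krt5*, *Krt14*, *Trp63*) through a spinous layer rich in desmosomes (*Krt1*, *Krt10*, *Dsg1a*, *Jup*) to a cornified layer of crosslinked proteins (*Lor*, *Ivl*, *Sprr* and *Lce* genes, joined by *Tgm1*). Lupus skin is known both for a type I interferon signature and for changes of the epidermis. Nonlesional skin shows how far either is present where no lesion is visible.

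The skin libraries held between 40499078 and 56511276 counts each, and 19101 of the 55491 genes in the table passed edgeR's filter on low counts and were tested. Levels are given as CPM, the count of a gene scaled to the TMM-normalised library size, which compare a gene between libraries but not one gene with another. Fold changes are log2 differences, NL minus WT, with their standard error (SE). On the first principal component of all 9 skin libraries, which held 77.9% of the variance, the WT libraries lay from -79.7 to -76.1, the NL libraries at -60.4 and -61.4 and the L libraries from 59.2 to 121. One feature of library NL 3 does not follow either sex: it held 13 counts of *Xist*, the RNA of the inactive X chromosome, while WT and NL 2 libraries held 3297 to 9353, and the 4 Y-linked genes examined (*Ddx3y*, *Uty*, *Kdm5d*, *Eif2s3y*) had 0 counts in it. Of the L libraries, L 6 had the same pattern, with 6 *Xist* counts and 0 from Y-linked genes. Y-linked counts were 1 in WT 8 and 0 in every other skin library, so none of the 9 skin libraries showed Y-linked expression of male mice. Several list medians of NL against WT skin that moved widely or changed sign without NL 2 or without NL 3 are given with and without these libraries. Medians not given in this way were not all steady. That of the hair shaft keratins was 0.44, but -1.27 without NL 3 and 0.97 without NL 2. The tissue label was borne out by keratins of the epidermis, collagens of the dermis, adipocyte genes and much skeletal muscle RNA in WT and NL libraries alike.

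Epidermal genes were higher and genes of dermal, adipose and macrophage lists lower in NL than in WT skin, all by amounts that did not pass an adjusted p of 0.05 in the fit of all 9 skin libraries. With edgeR's quasi-likelihood test 0 genes (0%) passed, and the lowest adjusted p was 0.417. An unadjusted p under 0.05 was reached by 7.67% of tested genes (1465), of which 1042 were higher (5.46% of tested genes) and 423 lower in NL skin (2.21%). DESeq2, run on the same 9 libraries, called 80 of 18594 genes (0.43%), 63 higher (0.339%) and 17 lower (0.0914%), and in each of the 80 both NL libraries lay on the same side of all 3 WT libraries. Over all tested genes, both NL libraries lay above all 3 WT libraries in 3558 (18.6%) and below them in 3119 (16.3%). When NL and WT libraries were fitted alone, edgeR called 1 of 17684 genes (0.00565%), *Plekhb1*, while DESeq2 called 1336 of 14598 (9.15%). The median log2 fold change of all tested genes was -0.00, and 49.0% of them were higher in NL skin.

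**Figure D1:**
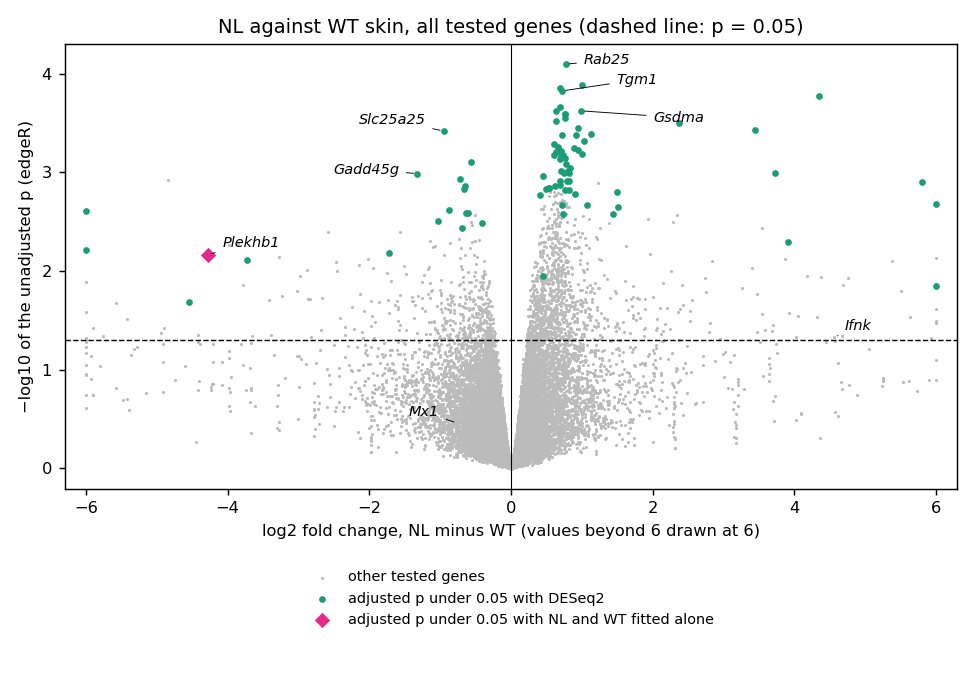
Log2 fold change of NL against WT skin (x axis) and −log10 of the unadjusted p from edgeR's test (y axis) for the 19101 tested genes, with the 80 genes called by DESeq2 in green and *Plekhb1* as a diamond. Among genes with a p under 0.05, those above the dashed line, 1042 lie to the right of 0 and 423 to the left.

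*Ifnk* (ENSMUSG00000042993, chromosome 4 from 35152056 to 35154005) was hardly counted in either group. There were 0 counts in each WT library, 6 in NL 2 and 0 in NL 3, so both groups were at or near the floor of 3 counts per library and no fold is given. The lesional libraries L 4, L 5, L 6 and L 7 held 14, 11, 5 and 8 counts. Whether transcripts of the transgene were assigned to *Ifnk* was not tested. *Krt14*, the endogenous gene whose promoter drives the transgene, was at 1339, 1374 and 1219.9 CPM in the WT and 2381 and 1946 CPM in the NL libraries. Both NL values lay above all 3 WT values, and the log2 fold change of 0.72 (SE 0.41) had an adjusted p of 0.710 from edgeR's test.

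The 10 genes higher in NL skin that had the smallest p and separated groups were mostly genes of epithelia, several of them known from the outer epidermis. *Rab25* (ENSMUSG00000008601), a small GTPase of epithelial recycling endosomes on chromosome 3 from 88542029 to 88548300, was at 59.6, 54.7 and 47.7 CPM in the WT libraries and 95.5 and 88.5 CPM in the NL libraries. Its log2 fold change was 0.77 (SE 0.11), with an adjusted p of 0.417 from edgeR and 4.79e-05 from DESeq2. *Tgm1* (ENSMUSG00000022218, chromosome 14 from 55700009 to 55713926), the transglutaminase that crosslinks the cornified envelope, was at 37.6, 33.0 and 33.5 CPM in WT and 55.2 and 59.5 CPM in NL libraries, a log2 fold change of 0.72 (SE 0.11, DESeq2 adjusted p = 0.000536). For both genes the lower NL library lay above the highest WT library, which the rule for naming them required. *Gsdma* (ENSMUSG00000017204, chromosome 11 from 98664351 to 98677708), a pore-forming gasdermin of keratinocytes, was at 24.7, 24.0 and 21.4 CPM in WT and 48.4 and 44.2 CPM in NL libraries, 1.98 times as high (log2 fold change 0.99, SE 0.17, DESeq2 adjusted p = 0.00201). *Pkp3* (chromosome 7 from 141078218 to 141090510), a plakophilin of desmosomes, was at 175, 164 and 139 CPM in WT and 260.4 and 279 CPM in NL libraries (log2 fold change 0.76, SE 0.13, DESeq2 adjusted p = 0.000314).

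The other 6 of these genes had folds of the same order. *Ap1m2*, a subunit of the epithelial clathrin adaptor, was at 24.3 ± 1.60 CPM (SD, n = 3) in WT and 39.3 ± 1.02 CPM (SD, n = 2) in NL skin. The values were 5.99 ± 0.919 and 12.0 ± 0.595 CPM for *Nkpd1*, a gene of the NTPase family with a KAP domain, the largest fold of the 10. For *Sox21*, a transcription factor of hair follicles, they were 25.7 ± 2.01 and 43.3 ± 1.83 CPM. *Cdc25b*, a phosphatase that activates mitotic kinases, had a tight WT group at 18.5 ± 0.436 CPM and 31.3 ± 3.05 CPM in NL skin. *Actn1*, the actin crosslinker alpha-actinin, stood at 76.0 ± 2.40 and 118 ± 7.04 CPM, and *Vsig10l* at 28.3 ± 3.24 and 45.7 ± 1.64 CPM. In all 10 genes the L libraries also lay above the WT libraries. In the comparison of L with NL skin, which shares the NL libraries, 7 of them were called higher in L skin (against 13.2% of all tested genes), by log2 differences of 0.46 (*Rab25*) to 1.85 (*Gsdma*). *Actn1* and *Cdc25b* differed from NL skin by 0.13 and 0.16 (adjusted p = 0.374 and 0.378 from edgeR's test), and *Vsig10l* was lower in L than in NL skin (-0.43, adjusted p = 0.0211). Leaving out NL 3 gave log2 fold changes of 0.79 for *Rab25*, 0.64 for *Tgm1* and 1.02 for *Gsdma*, and leaving out NL 2 gave 0.71, 0.78 and 0.92.

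**Figure D2:**
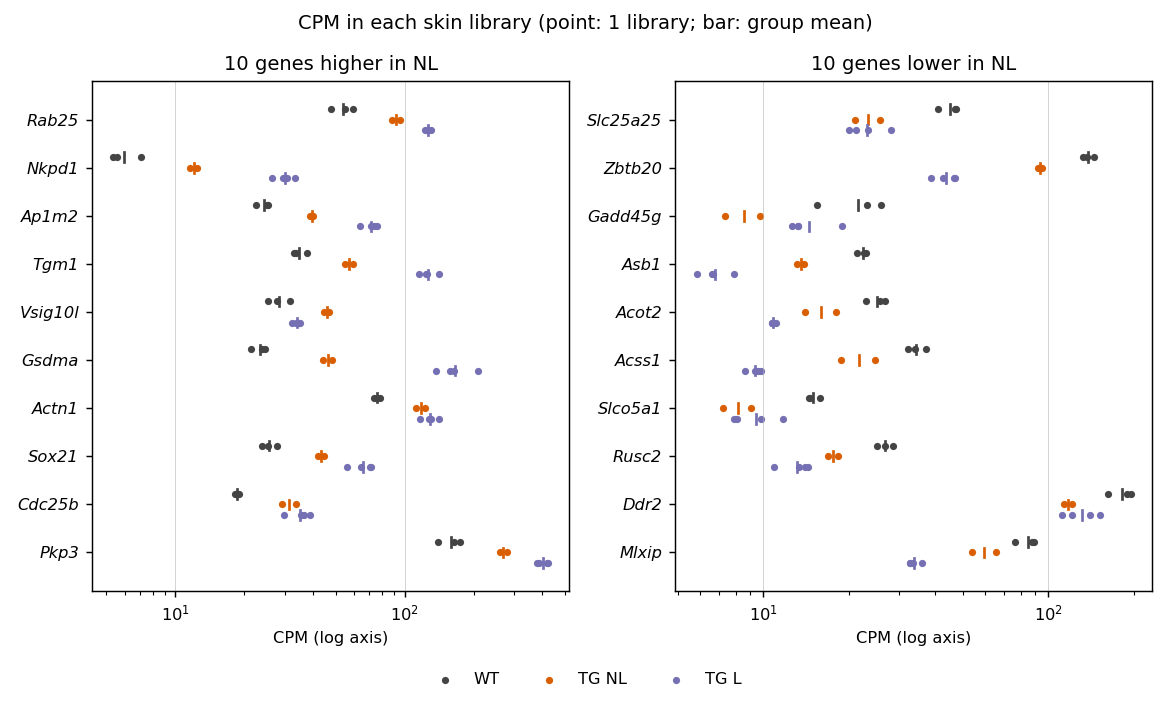
CPM on a log axis in each skin library for the 10 genes higher and the 10 genes lower in NL skin that had the smallest p among separated genes, with 1 point per library, grey for WT, orange for NL and purple for L, and a bar at each group mean. The NL points of *Rab25*, at 95.5 and 88.5 CPM, lie between the WT and L points, and those of *Slc25a25*, at 25.6 and 21.02 CPM, lie among the L points.

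Lists of keratinocyte genes showed the same direction in nearly every member. Of the 11 tested basal keratinocyte genes all 11 were higher in NL skin, with a median log2 fold change of 0.68, and 4 had an unadjusted p under 0.05 (against 5.46% of all tested genes). *Krt5*, the partner keratin of *Krt14*, was at 2739, 2478 and 2229 CPM in WT and 4480.0 and 4229 CPM in NL libraries (log2 fold change 0.81, SE 0.30, adjusted p = 0.599 from edgeR's test). *Trp63*, the transcription factor that maintains the basal layer, was at 198, 171 and 175 CPM in WT and 234 and 288 CPM in NL libraries (log2 fold change 0.53, SE 0.16). Both genes were separated between the groups. The cadherin *Cdh3* (0.68, SE 0.24) and the hemidesmosome integrin *Itgb4* (0.52, SE 0.20) were the other 2 with a p under 0.05, and *Dst*, which anchors keratins to hemidesmosomes, had the smallest difference (0.01, SE 0.34).

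Of 15 spinous and desmosome genes 14 were higher, with a median of 0.67, and 8 had a p under 0.05 against 5.46% of all genes. *Jup*, plakoglobin, was at 427, 389 and 326 CPM in WT and 609.6 and 641 CPM in NL libraries (log2 fold change 0.72, SE 0.17, DESeq2 adjusted p = 0.0231). The desmocollins *Dsc3* (0.80, SE 0.23) and *Dsc1* (0.67, SE 0.20), the plakophilin *Pkp1* (0.67, SE 0.22) and the receptor *Notch3* (0.50, SE 0.16) followed. The keratins of the spinous layer *Krt1* and *Krt10* both had a log2 fold change of 0.80, with SEs of 0.44 and 0.40. Only *Krt2*, which did not exceed 0.775 CPM in these libraries, was lower (-0.75, SE 1.72).

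The cornified list had the largest median of the keratinocyte lists. Of its 34 genes 33 were tested, 31 were higher and 1, *Hrnr*, was lower (-0.01, SE 0.49). *Lce3a* had no counts in WT and NL libraries, *Lce3b* was at or under the floor in both groups, and both passed the filter through the L libraries. The median was 0.90, 28 genes were separated with NL above WT against 18.6% of all genes, and 19 had a p under 0.05 against 5.46% of all genes. *Lor*, loricrin, the main protein of the envelope, was at 789, 802 and 599 CPM in WT and 1685 and 1351 CPM in NL libraries (log2 fold change 1.06, SE 0.36). *Cdsn*, corneodesmosin, was at 328, 265 and 247 CPM in WT and 503 and 539.8 CPM in NL libraries (0.90, SE 0.24). *Sprr1a*, a crosslinked envelope precursor, was at 70.2, 94.8 and 56.1 CPM in WT and 125 and 175 CPM in NL libraries (1.03, SE 0.32), and *Lce1c*, a late envelope protein, at 60.1, 51.4 and 45.9 CPM in WT and 126 and 114 CPM in NL libraries (1.19, SE 0.38). The *Lce1* genes resemble each other, so reads may have been split among them. In all 4 the NL libraries lay above every WT library, and the adjusted p from edgeR's test ranged from 0.503 for *Cdsn* to 0.590 for *Lor*. *Cnfn*, cornifelin, had a log2 fold change of 0.76 (SE 0.21). *Flg*, filaggrin, was separated as well, at 35.9, 43.5 and 34.7 CPM in WT and 63.6 and 65.1 CPM in NL libraries. The whole list kept a median of 0.82 without NL 3 and 0.79 without NL 2. These are bulk samples, in which more cells of a type and more RNA per cell cannot be told apart.

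Keratins and alarmins that mark stressed epidermis were partly higher. *Krt17*, a keratin of follicles and of activated keratinocytes, was at 494, 479.9 and 370.3 CPM in WT and 864 and 924 CPM in NL libraries, a log2 fold change of 1.00 (SE 0.26, adjusted p = 0.503 from edgeR's test). *Krt16*, another keratin of activated keratinocytes, was at 11.9, 15.2 and 5.81 CPM in WT and 54.7 and 25.7 CPM in NL libraries, a difference with a wide error (1.87, SE 0.96). *Sprr2h* reached 1.45 CPM in NL 2 but 0.0490 CPM in NL 3, the level of WT 10, and belongs to a family of near-identical genes. Of the 14 genes 9 were higher and 2 lower, among them *Lcn2*, an antimicrobial protein that was at 2.76, 5.01 and 9.82 CPM in WT and 1.82 and 1.74 CPM in NL libraries (-1.72, SE 0.91). *Sprr2a1*, *Defb3* and *Defb4* had no counts in the 5 libraries. In L skin 10 of the 14 were called above NL skin, with 13.2% of all tested genes called higher.

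Promoters of genes of the outer epidermis that were higher in NL skin, and of *Rab25*, are shown because AP-1 and grainyhead factors are known regulators of the outer epidermis. RefSeq promoters (GRCm38.p6, 250 bases before to 50 after the start) were matched for 30 of the 33 tested cornified genes. The AP-1 motif TGANTCA, searched on both strands, was present in 7 of the 30 (23.3%) and in 8.97% of all 27025 genes with a promoter. It was in 1 of 8 promoters of spinous genes, in 0 of 5 of basal genes and in 0 of 8 of the 10 higher genes named first. The grainyhead motif AACCNGTT was in 2 of the 30 and in 2.35% of all genes. Among the genes called higher by DESeq2, 41 had a promoter, 8 of them (19.5%) with the AP-1 and 1, *Rab25*, with the grainyhead motif. The 250 bases before the start are printed 5′ to 3′ on the gene's strand with the motif in capitals, for *Lor* (chr3:92083143-92083392, minus strand), *Sprr1a* (chr3:92485882-92486131, minus strand) and *Rab25* (chr3:88548280-88548529, minus strand).
Lor: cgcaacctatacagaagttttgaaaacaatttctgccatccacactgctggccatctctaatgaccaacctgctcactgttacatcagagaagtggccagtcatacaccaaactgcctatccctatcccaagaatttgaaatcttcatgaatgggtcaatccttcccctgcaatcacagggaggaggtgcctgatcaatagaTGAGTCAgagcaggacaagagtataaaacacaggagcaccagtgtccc
Sprr1a: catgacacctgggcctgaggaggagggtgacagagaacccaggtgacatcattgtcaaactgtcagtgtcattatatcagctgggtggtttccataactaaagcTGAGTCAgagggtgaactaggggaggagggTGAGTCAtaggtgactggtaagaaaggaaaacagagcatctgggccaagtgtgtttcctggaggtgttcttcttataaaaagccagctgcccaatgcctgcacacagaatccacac
Rab25: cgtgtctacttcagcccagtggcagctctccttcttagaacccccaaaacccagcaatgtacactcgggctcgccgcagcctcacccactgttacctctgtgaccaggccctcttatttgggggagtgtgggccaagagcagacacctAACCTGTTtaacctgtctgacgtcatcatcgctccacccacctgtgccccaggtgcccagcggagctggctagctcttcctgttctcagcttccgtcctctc
*Lor* holds the AP-1 letters once, from base -48, and *Sprr1a* has 2 matches, from bases -146 and -116, counted back from the transcription start. A match of letters is a description and not a measured site.

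DESeq2's 63 genes higher in NL skin held further genes of epithelia, named here after their values were seen. Among them was *Grhl1*, a transcription factor of epidermal differentiation, at 151, 122 and 122 CPM in WT and 194 and 234 CPM in NL libraries (DESeq2 adjusted p = 0.0151). The ETS factor *Ehf* was at 5.91, 5.37 and 4.80 CPM in WT and 9.69 and 11.0 CPM in NL libraries (DESeq2 adjusted p = 0.0151). Both factors had separated groups, as had every gene called by DESeq2 in the fit of all skin libraries. The epithelial splicing regulators *Esrp1* and *Esrp2* had log2 fold changes of 0.73 (SE 0.14) and 0.71 (SE 0.14). The junction genes *Cldn4* and *Lsr* had 0.73 and 0.71, and *Nectin4*, a cell adhesion gene, 0.80. *Ezr*, which links actin to the membrane, had close WT values of 147, 144 and 146 CPM and was at 219 and 230.5 CPM in the NL libraries (DESeq2 adjusted p = 0.000264). *Nppb*, which encodes brain natriuretic peptide, and *Tdh*, a threonine dehydrogenase gene, had no counts in WT skin and means of only 0.431 and 0.145 CPM in NL skin. *Gm43951* (ENSMUSG00000107877, chromosome 11 from 72203952 to 72206840), a gene model of no known function, was at 0.433, 0.190 and 0.297 CPM in WT and 2.47 and 4.27 CPM in NL libraries, a log2 fold change of 3.44 (SE 0.62, DESeq2 adjusted p = 0.000403). It was at 1.93, 2.57, 0.859 and 3.82 CPM in the L libraries, above WT in all 4.

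Among the 10 lower genes of the same rule, *Slc25a25*, a mitochondrial ATP-Mg carrier, had the smallest p. It lies on chromosome 2 from 32414487 to 32451445 (ENSMUSG00000026819) and was at 47.5, 41.0 and 47.0 CPM in WT and 25.6 and 21.02 CPM in NL libraries, a log2 fold change of -0.95 (SE 0.17, adjusted p = 0.417 from edgeR and 0.000844 from DESeq2). *Gadd45g*, a stress sensor of the GADD45 family, had the largest fold, with 15.4, 25.9 and 22.998 CPM in WT and 9.75 and 7.31 CPM in NL libraries (-1.33, SE 0.28, DESeq2 adjusted p = 0.00471). *Zbtb20*, a zinc finger repressor, was at 144, 132 and 137 CPM in WT and 92.0 and 94.8 CPM in NL libraries (-0.56, SE 0.11, DESeq2 adjusted p = 0.00201). None of these groups overlapped, which the rule for naming the genes required. *Ddr2*, a collagen receptor of mesenchymal cells, was at 182 ± 17.2 CPM (SD, n = 3) in WT and 117 ± 4.99 CPM (SD, n = 2) in NL skin. *Acot2* and *Acss1*, mitochondrial enzymes that handle acyl-CoA and acetate, were at 25.1 ± 1.94 and 34.4 ± 2.50 CPM in WT and 15.95 ± 2.83 and 21.7 ± 4.25 CPM in NL skin. *Mlxip*, a glucose-sensing transcription factor, fell short of DESeq2's threshold (log2 fold change -0.50, adjusted p = 0.0590). The last 3, *Asb1*, *Slco5a1*, an organic anion transporter family member, and *Rusc2*, had log2 fold changes of -0.72, -0.88 and -0.61 (SE 0.15, 0.21 and 0.15). Of DESeq2's 17 lower genes, *Krt8*, a keratin of simple epithelia, and *Sfrp2*, a WNT antagonist of fibroblasts, are named after their values were seen. *Krt8* was at 0.661, 0.475 and 10.5 CPM in WT and 0.134 and 0.196 CPM in NL libraries, a difference whose size rested on WT 10, and *Sfrp2* at 19.8, 25.0 and 14.05 CPM in WT and 6.65 and 5.25 CPM in NL libraries.

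*Plekhb1* (ENSMUSG00000030701, chromosome 7 from 100642892 to 100662414) encodes a membrane protein with a pleckstrin homology domain. It was at 27.9, 26.3 and 33.2 CPM in the WT libraries, 1.26 and 1.74 CPM in the NL libraries and 5.08, 0.937, 0.286 and 0.541 CPM in the L libraries, so that the highest *Ifnk* TG library, L 4, lay far below the lowest WT library. The log2 fold change of NL against WT skin was -4.28 (SE 1.18), and it was -4.56 without NL 3 and -4.06 without NL 2. It was the only gene with an adjusted p under 0.05, 0.00171, when NL and WT libraries were fitted alone with edgeR. In the fit of all skin libraries the adjusted p was 0.532, and DESeq2 gave no adjusted p. The gene had too few counts in lymph nodes to be tested. Within 1 Mb on either side, 36 other genes were tested, and 5 of them had an unadjusted p under 0.05, against 7.67% of all tested genes. These were *Stard10* (log2 fold change 0.44), *Pold3* (0.30), *P2ry2* (-0.75), *P2ry6* (-0.86) and *Gm35363*, which had no counts in WT skin and a mean of 0.127 CPM in NL skin. The flanking genes *Fam168a* and *Rab6a* had log2 fold changes of -0.09 and 0.00, and *Gm35082*, at no more than 0.358 CPM on average in either group, had 0.82. Whether the difference in *Plekhb1* came with the transgene or with remaining parts of the original strain's genome was not tested.

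**Figure D3:**
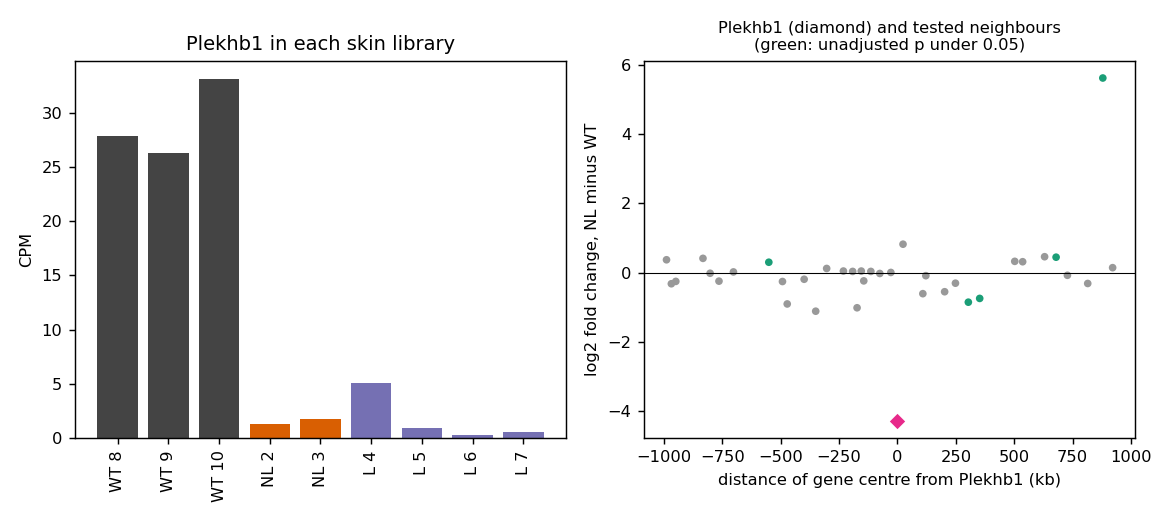
Left, *Plekhb1* in each of the 9 skin libraries as bars of CPM. Right, log2 fold change of NL against WT skin for *Plekhb1* (diamond, -4.28) and its 36 tested neighbours (points, green where the unadjusted p is under 0.05) against the distance of gene centres in kb; the green point near 6 is *Gm35363*, whose fitted value rests on no WT counts.

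Type I interferon-stimulated genes were on balance lower in NL than in WT skin, with values in NL 2 below those in NL 3. Of 36 genes, all tested, 34 were lower and 2 higher, with a median log2 fold change of -0.42, and 0 had an unadjusted p under 0.05. *Mx1*, an antiviral GTPase, was at 1.82, 1.40 and 1.21 CPM in WT and 0.248 and 1.52 CPM in NL libraries, a log2 fold change of -0.76 (SE 0.76, adjusted p = 0.821 from edgeR's test). *Isg15*, a ubiquitin-like protein, was at 16.5, 13.8 and 11.9 CPM in WT and 6.40 and 14.6 CPM in NL libraries (-0.42, SE 0.64). *Ifit3*, which blocks translation of viral RNA with its relatives, was at 37.6, 29.1 and 20.01 CPM in WT and 7.97 and 29.4 CPM in NL libraries (-0.63, SE 0.72). In each of these NL 2 lay below all WT libraries and NL 3 among them. The 3 genes with both NL libraries below all WT libraries, against 16.3% of all genes, were *Trim30a* (-0.74, SE 0.42), *Ifi44l* (-0.95, SE 0.55) and *Dhx58* (-0.61, SE 0.47). The 1 gene with both above was *Ifi27l2a*, at 224, 198 and 176 CPM in WT and 315 and 227 CPM in NL libraries (0.44, SE 0.38). As a mean of log2 CPM over the 36 genes, relative to all 9 skin libraries, the list stood at -0.13, -0.13 and -0.34 in the WT libraries, -0.99 in NL 2 and -0.24 in NL 3. Without NL 3 the median fold change was -0.96, and without NL 2 it was -0.043. With *Xist* as a covariate it was -0.80.

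The promoters of *Isg15* (chr4:156200819-156201068, minus strand, GRCm38.p6) and *Ifit3* (chr19:34583279-34583528, plus strand) are printed as examples of the element through which these genes are known to respond, from RefSeq, as 250 bases before the start with the ISRE letters (GAAA, any 2 bases, GAAA, on either strand) in capitals.
Isg15: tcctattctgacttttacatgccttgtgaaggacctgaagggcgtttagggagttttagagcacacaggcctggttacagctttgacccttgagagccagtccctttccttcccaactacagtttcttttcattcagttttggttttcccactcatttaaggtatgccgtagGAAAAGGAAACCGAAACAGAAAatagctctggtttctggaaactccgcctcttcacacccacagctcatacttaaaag
Ifit3: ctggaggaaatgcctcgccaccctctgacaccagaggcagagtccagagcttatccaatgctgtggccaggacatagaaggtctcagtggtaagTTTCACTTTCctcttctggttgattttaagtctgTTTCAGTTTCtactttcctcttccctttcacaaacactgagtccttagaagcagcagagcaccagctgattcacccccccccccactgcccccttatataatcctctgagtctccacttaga
*Isg15* holds 3 overlapping matches, from bases -78, -72 and -66, and *Ifit3* holds 2, read on the opposite strand, whose printed letters begin at bases -156 and -122. Of the 36 genes 26 had a promoter in the table and 14 of these (53.8%) held the ISRE letters, compared with 3.99% of all 27025 genes. In the interferon gamma-induced list they were in 11 of 13.

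**Figure D4:**
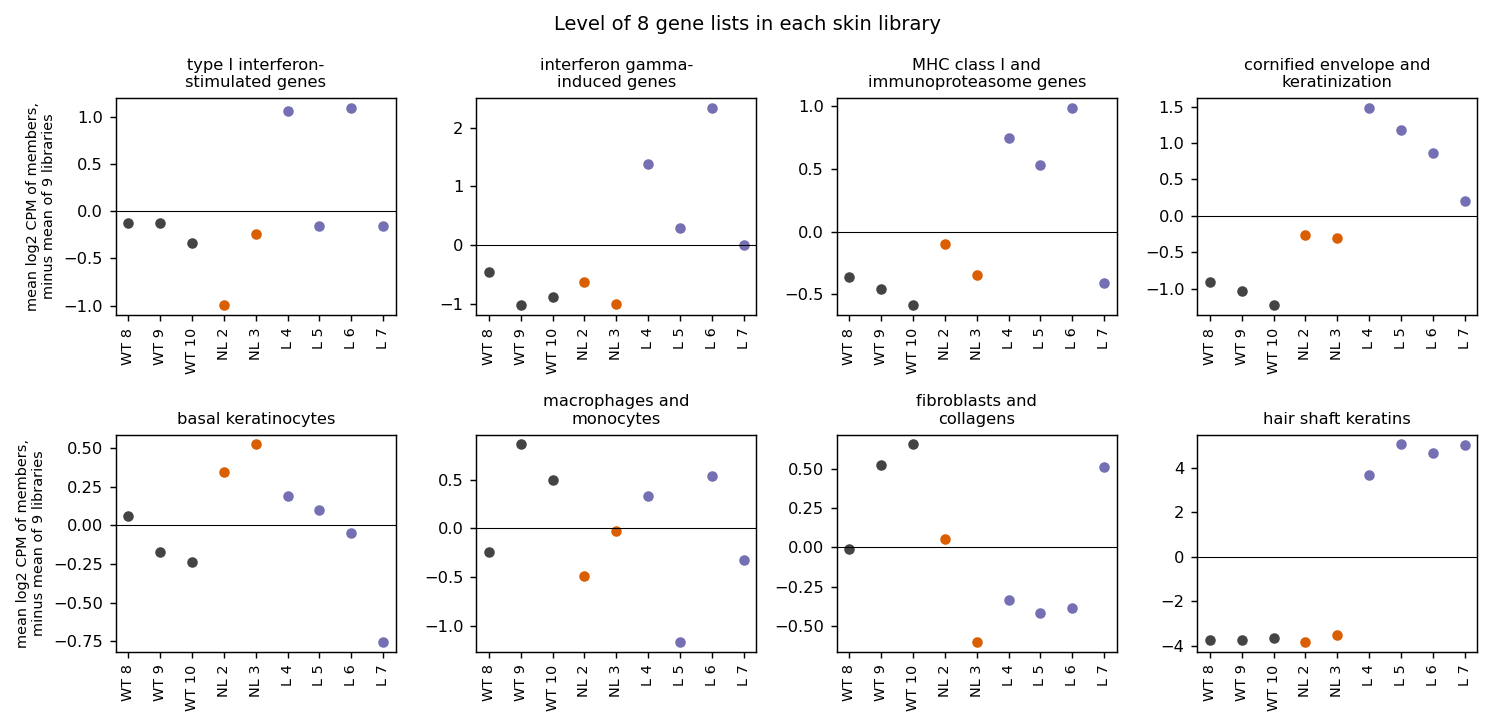
Level of 8 gene lists in each of the 9 skin libraries, as the mean log2 CPM of the tested members minus its mean over the 9 libraries (y axis), with WT in grey, NL in orange and L in purple. NL 2 is the lowest library for interferon-stimulated genes at -0.99, and both NL libraries lie between WT and L for the cornified list, at -0.26 and -0.30.

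The interferon gamma, receptor and MHC lists had medians nearer to 0. The 22 interferon gamma-induced genes had a median of -0.045, with 8 higher and 14 lower and 0 with a p under 0.05. That median was 0.13 without NL 3 and -0.37 without NL 2. *Socs1*, a feedback inhibitor of JAK kinases, was at 3.08, 2.21 and 3.73 CPM in WT and 2.58 and 1.77 CPM in NL libraries, and *Nlrc5*, the activator of MHC class I genes, at 51.8, 34.1 and 34.5 CPM in WT and 56.1 and 52.8 CPM in NL libraries (0.44, SE 0.45). Of 14 receptor and JAK-STAT genes, *Ifnlr1*, the receptor chain for interferon lambda that keratinocytes express, had the smallest p (log2 fold change 0.71, SE 0.32, adjusted p = 0.659 from edgeR's test), and *Ifnar2* stood at -0.26 (SE 0.20). Among 6 interferon genes only *Ifnk* and *Ifng* had enough counts to be tested, and *Ifng* was at no more than 0.229 CPM in these 5 libraries. Genes of MHC class I presentation and the immunoproteasome leaned the other way from the interferon-stimulated genes, with 15 of 16 higher, a median of 0.22 and 8 separated above WT against 18.6% of all genes, though none with a p under 0.05. The median was 0.30 without NL 3 and 0.10 without NL 2. *Tap1*, the peptide transporter, was at 76.7, 60.0 and 55.7 CPM in WT and 106 and 90.7 CPM in NL libraries (0.62, SE 0.45), and *H2-Q7*, a nonclassical class I gene with near-identical relatives among which reads may be split, had 0.66 (SE 0.47). All 9 class II genes were higher, with a median of 0.17 (0.08 without NL 3 and 0.23 without NL 2) and *Cd74* and *H2-Aa* among those whose groups overlapped.

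Of 34 tested chemokines 6 were separated with NL above and 3 with NL below WT skin, and of 21 tested receptors 5 and 2, in each case close to or under the 18.6% and 16.3% of all tested genes. *Cxcl16*, a membrane-bound chemokine of keratinocytes and myeloid cells (chromosome 11 from 70453983 to 70459984), was at 29.8, 27.4 and 28.1 CPM in WT and 41.5 and 50.1 CPM in NL libraries, the only one of the chemokines with a p under 0.05 (0.69, SE 0.28, adjusted p = 0.645 from edgeR's test). *Ccl27a* and *Ccl27b*, nearly identical genes for the keratinocyte chemokine that binds CCR10, may have shared reads. *Ccl27a* was at 35.2, 24.4 and 25.0 CPM in WT and 45.9 and 48.5 CPM in NL libraries, and *Ccl27b* was at 15.2, 12.6 and 10.7 CPM in WT and 20.3 and 21.3 CPM in NL libraries. *Ccl20*, the ligand of CCR6, was at 0.456, 0.332 and 0.495 CPM in WT and 0.879 and 0.662 CPM in NL libraries (0.85, SE 0.42). *Cxcl12*, made by dermal stroma, was lower, at 177, 192 and 237 CPM in WT and 154 and 115 CPM in NL libraries (-0.59, SE 0.34). The interferon-induced *Cxcl9* and *Cxcl10* overlapped between the groups, with log2 fold changes of 0.11 (SE 0.97) and -0.21 (SE 1.43). Among the receptors, *Ccr4*, a receptor of skin-homing T cells (chromosome 9 from 114490316 to 114504916), was at 4.04, 4.27 and 3.78 CPM in WT and 8.98 and 5.98 CPM in NL libraries (0.89, SE 0.33, adjusted p = 0.599) and *Ackr3*, a scavenger of CXCL12, at 53.9, 86.7 and 102 CPM in WT and 50.3 and 41.8 CPM in NL libraries (-0.81, SE 0.29, adjusted p = 0.599). Under DESeq2 with NL and WT fitted alone, *Krt14*, *Ccl27a*, *Ccl27b*, *Ccr4* and *Cxcl16* each had an adjusted p under 0.05, a call it made for 9.15% of genes.

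Cytokines of the interleukin-1 family held the 2 smallest p-values of 25 tested cytokines, of which 19 were higher and 5 lower. *Il1rn*, the receptor antagonist, was at 35.6, 33.0 and 39.2 CPM in WT and 58.0 and 62.8 CPM in NL libraries (0.75, SE 0.26, adjusted p = 0.593 from edgeR's test). *Il1a*, the alarmin stored in keratinocytes, was at 4.70, 4.56 and 2.84 CPM in WT and 8.91 and 8.76 CPM in NL libraries (1.13, SE 0.43). *Il15*, which sustains lymphocytes of the epidermis, was at 3.97, 3.06 and 2.65 CPM in WT and 4.55 and 5.42 CPM in NL libraries (0.63, SE 0.26). All 3 were separated. *Tnfsf13b*, the B cell factor BAFF, was lower in both NL libraries (-1.31, SE 0.61), and *Tnf* overlapped. Among 18 cell death genes, *Gsdma* was the only one with a p under 0.05, which 7.67% of all genes reached, and *Casp4*, an inflammatory caspase, had 0.61 (SE 0.34).

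Macrophage and monocyte, complement and mast cell genes were lower in every tested member, while neutrophil and dendritic cell genes were not. All 13 macrophage and monocyte genes were lower, with a median of -0.71, though only 2 were separated below WT, against 16.3% of all genes. *Mertk*, a receptor for clearing dead cells, was at 22.9, 34.9 and 13.5 CPM in WT and 9.52 and 12.5 CPM in NL libraries (-1.11, SE 0.37, adjusted p = 0.585 from edgeR's test) and *Cd68* at 30.3, 68.0 and 56.7 CPM in WT and 27.3 and 36.2 CPM in NL libraries (-0.70, SE 0.41). For *Cd68*, WT 8 lay between the NL libraries and WT 9 and WT 10 above them, and the level of the whole list was -0.24, 0.87 and 0.50 in the WT and -0.49 and -0.02 in the NL libraries. All 17 complement genes were lower, with a median of -0.67 and 7 separated below WT against 16.3% of all genes, and none had a p under 0.05. *C4b* was at 645, 755 and 704 CPM in WT and 349 and 427 CPM in NL libraries (-0.85, SE 0.74) and *Serping1*, the C1 inhibitor, at 208, 289 and 252 CPM in WT and 181 and 137 CPM in NL libraries (-0.65, SE 0.38). The 10 mast cell genes were lower too, with a median of -0.55, *Ms4a2* having -1.01 (SE 0.43). The 10 tested neutrophil genes had no common direction, with 5 higher and a median of -0.15. That median was -0.44 when 1 gene at or under the floor of 3 counts in both groups was left out. It was -0.57 without NL 3 and -0.33 without NL 2. Langerhans and dendritic genes split, 5 higher and 6 lower, with *Epcam*, also an epithelial gene, at 99.9, 103 and 97.7 CPM in WT and 157 and 177 CPM in NL libraries and *Zbtb46*, a factor of classical dendritic cells, at 6.64, 7.24 and 7.42 CPM in WT and 4.26 and 4.54 CPM in NL libraries (-0.69, SE 0.18, DESeq2 adjusted p = 0.0128).

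The medians of the lymphocyte lists depended on which NL library was kept. Of 17 T cell genes 12 were higher, with a median of 0.34 (-0.00 without NL 3 and 0.49 without NL 2), and *Trbc2*, a constant region of the T cell receptor beta chain, was at 9.62, 7.93 and 7.47 CPM in WT and 13.9 and 13.2 CPM in NL libraries (0.70, SE 0.29). *Cd4* was at 1.55, 3.37 and 2.18 CPM in WT and 1.74 and 0.858 CPM in NL libraries and *Foxp3*, the factor of regulatory T cells, at 0.297 CPM or less. The 8 gamma delta T cell genes had a median of 0.08 (-0.12 without NL 3 and 0.40 without NL 2). It was 0.16 when 1 gene at the floor in both groups was left out. *Trdv4*, of dendritic epidermal T cells, was at 4.45, 2.45 and 4.23 CPM in WT and 3.13 and 3.29 CPM in NL libraries. The cytotoxic and NK list had a median of -0.36 (-0.02 without NL 3 and -1.14 without NL 2). It was -0.63 with 1 gene set to the floor and 1 at the floor in both groups left out. In this list 2 of 12 genes were higher, among them *Prf1*, perforin, at 9.37, 6.41 and 9.55 CPM in WT and 8.52 and 16.6 CPM in NL libraries. Of 12 B and plasma cell genes 6 were higher, with a median of 0.04 that was 0.57 without NL 3 and -0.80 without NL 2, and *Ighm*, the IgM heavy chain, was at 103, 106 and 66.2 CPM in WT and 209 and 124 CPM in NL libraries (0.86, SE 0.41), with both NL libraries above WT.

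Dermal, vascular, muscle and fat markers lay on the other side of 0 from the epidermal lists. All 13 fibroblast and collagen genes were lower in NL skin, with a median of -0.65, and 5 were separated below WT against 16.3% of all genes. *Dcn*, decorin, was at 816, 1359 and 1274 CPM in WT and 841 and 711 CPM in NL libraries (-0.57, SE 0.26), and *Col1a1* at 586, 689.7 and 863 CPM in WT and 755 and 294 CPM in NL libraries, where NL 2 lay among the WT libraries and NL 3 far below. The level of the list was -0.01, 0.52 and 0.66 in the WT and 0.05 and -0.60 in the NL libraries, and the median was -0.33 without NL 3 and -1.10 without NL 2. Each of the 10 endothelial genes was lower (median -0.32), *Cldn5* having -0.55 (SE 0.28). The same held for the 11 adipocyte genes (median -0.53), *Fabp4*, a fatty acid carrier, being at 3729, 2368 and 1928 CPM in WT and 2071 and 1528 CPM in NL libraries. Of 15 skeletal muscle genes 13 were lower, with a median of -0.34, and the fast myosin *Myh4* differed in the other direction from *Myh1*, at 1665, 3349.6 and 4241 against 5018 and 5869 CPM where *Myh1* was at 5776, 5226 and 7029 against 2509 and 3954 CPM. Both myosins were separated, but the log2 fold changes of 0.82 (*Myh4*) and -0.90 (*Myh1*) were smaller than their SEs. The 7 smooth muscle genes (median -0.09, or -0.18 without NL 3 and -0.04 without NL 2), 9 melanocyte genes (-0.50, or -0.56 without a gene at the floor in both groups) and 14 sebaceous gland genes (-0.17) each had 0 members with a p under 0.05. The part of these cell contents in the differences of epidermal genes was not tested.

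**Figure D5:**
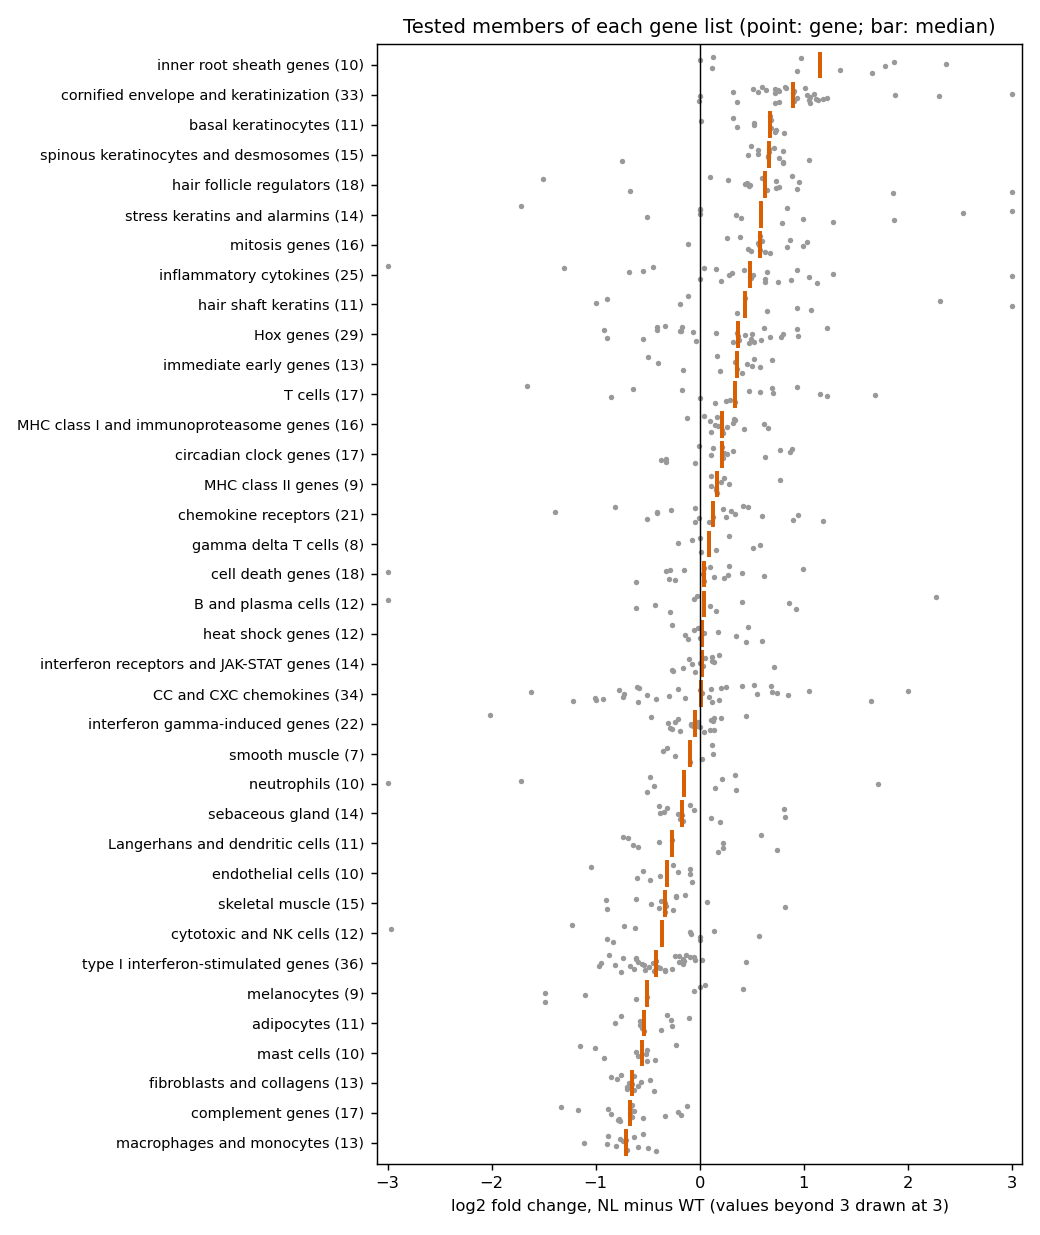
Log2 fold change of NL against WT skin for the tested members of 37 gene lists (points, values beyond 3 drawn at 3), ordered by their median (orange bar), with the number of tested members in brackets. Keratinocyte lists lie to the right of 0, with medians of 0.67 to 0.90, and macrophage, complement and fibroblast lists to the left, with medians of -0.65 to -0.71.

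Regulators of the hair follicle and mitosis genes were mostly higher. Of 18 follicle regulators 16 were higher, with a median of 0.62 (0.54 with a gene set to the floor). *Sox9*, a factor of follicle stem cells, was at 23.2, 24.6 and 20.1 CPM in WT and 43.8 and 43.9 CPM in NL libraries (0.95, SE 0.46), and *Lhx2*, which maintains these cells, at 31.8, 22.9 and 19.9 CPM in WT and 36.9 and 45.7 CPM in NL libraries (0.73, SE 0.25). *Edar*, the ectodysplasin receptor, was lower, at 2.03, 2.35 and 1.98 CPM in WT and 1.03 and 0.441 CPM in NL libraries (-1.51, SE 0.45). The hair shaft keratins were at trace levels in both groups, with *Krt33a* at no more than 0.564 CPM and *Krt34* at no more than 0.0490 CPM, where the L libraries held 285 to 1042 and 221 to 990 CPM. The 10 inner root sheath genes had a median of 1.16 (1.35 without a gene at the floor in both groups), which was -0.03 without NL 3 and 1.75 without NL 2. *Krt71* was at 0.274, 0.760 and 0.0247 CPM in WT, 0.344 CPM in NL 2 and 2.13 CPM in NL 3. Of 16 mitosis genes 15 were higher, with a median of 0.58, 10 separated above WT (against 18.6% of all genes) and 4 with a p under 0.05 (against 5.46%). *Cdk1*, the mitotic kinase, was at 2.03, 2.71 and 3.59 CPM in WT and 5.66 and 4.27 CPM in NL libraries (0.84, SE 0.34, adjusted p = 0.644 from edgeR's test) and *Plk1* at 1.12, 0.973 and 1.71 CPM in WT and 2.64 and 2.53 CPM in NL libraries (1.03, SE 0.44).

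Gene groups that can record handling, time of day or body site were examined as well. The 13 immediate early genes had a median of 0.36, which was 0.62 without NL 3 and -0.05 without NL 2, and ranged widely within WT skin, *Egr1* being at 662, 83.8 and 144 CPM in WT and 519 and 370.2 CPM in NL libraries. Of 12 heat shock genes 6 were higher, with a median of 0.02 (0.09 without NL 3 and -0.05 without NL 2), and *Hspa1b*, an inducible Hsp70 gene, was at 139.7, 99.1 and 109.5 CPM in WT and 179 and 171 CPM in NL libraries (0.59, SE 0.25). The 17 clock genes had a median of 0.22 (0.32 without NL 3 and 0.11 without NL 2), with *Dbp*, an output gene of the clock, at 55.5, 60.6 and 38.3 CPM in WT and 120.3 and 67.3 CPM in NL libraries (0.87, SE 0.46) and *Clock* at 88.3, 81.9 and 96.5 CPM in WT and 64.0 and 77.9 CPM in NL libraries. Of 29 tested *Hox* genes, which differ along the body axis, 18 were higher, 10 were separated above WT (against 18.6% of all genes) and 5 below WT (against 16.3%). *Hoxc13*, which acts in follicles, was at 2.19, 1.97 and 2.13 CPM in WT and 4.07 and 3.92 CPM in NL libraries (0.93, SE 0.34), and *Hoxc10*, a gene of the posterior trunk, was at 3.88, 3.82 and 3.71 CPM in WT, 0.726 CPM in NL 2 and 3.31 CPM in NL 3. Mitochondrial genes took 8.65% to 10.2% of counts in WT libraries and 6.50% and 8.34% in NL 2 and NL 3. The part of handling, hour or site in the differences was not tested.

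The lesional libraries of the same genotype, 4 in number, were set against NL skin as well. Of the tested genes 25% (4782) passed edgeR's test between L and NL skin at an adjusted p of 0.05, 2519 higher (13.2%) and 2263 lower in L skin (11.8%). This comparison shares the NL libraries with the one above, so the values are set side by side only. *Tgm1* stood at 34.7 ± 2.49 CPM in WT, 57.3 ± 3.03 CPM in NL and 115, 125, 141 and 124 CPM in the 4 L libraries, and *Gsdma* at 23.3 ± 1.75, 46.3 ± 2.92 and 137, 208, 164 and 158 CPM. For both the 3 groups did not overlap. Of the cornified list, 19 of 33 genes were called higher and 1 lower in L skin (median difference 1.38). Of the basal genes 1 was called higher and 4 lower in L skin (median difference -0.50), and *Krt5* was at 3811, 3676, 3093 and 1774 CPM in the L libraries. Interferon-stimulated genes had a median of 1.24 with 7 of 36 called higher in L skin, where libraries L 4 and L 6 stood at 1.06 and 1.09 and L 5 and L 7 at -0.16 on the scale used above. *Isg15* was at 136, 57.0, 102 and 26.1 CPM in L skin (log2 difference to NL 2.93, adjusted p = 0.0192). All 16 mitosis genes, 11 of 11 tested hair shaft and 10 of 10 inner root sheath genes were called higher in L skin. *Ccr4* was lower in L than in NL skin, by a log2 difference of -0.97 (adjusted p = 0.0468 from edgeR's test). Of 29 tested *Hox* genes 10 were called lower in L skin, against 11.8% of all tested genes, and 1 higher. Of 17 clock genes 8 were called lower and 0 higher. The skeletal muscle list had a median difference of -3.51, with 0 members called. The part of body site, hour or tissue content in the differences between L and NL skin was not tested.

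Lymph node libraries, which share no sample with the skin libraries, allow a contrast of the same genotypes under other conditions. Some nodes came from untreated and some from UVB-treated mice, and their ages are not labelled. The node libraries held 5134 to 15594 Y-linked counts and at most 42 of *Xist*, where each skin library held 0 or 1 Y-linked counts. Treatment and sex markers therefore differ between the tissues. Of 16173 tested genes 1 (0.00618%) had an adjusted p under 0.05 between *Ifnk* TG and WT nodes over both treatments, *Glo1* (ENSMUSG00000024026, chromosome 17 from 30584936 to 30626871), the glyoxalase that detoxifies methylglyoxal. Its log2 fold change was 0.44 in nodes (adjusted p = 0.0444 from edgeR's test), from 95.5 to 109 CPM in TG and 65.1 to 79.6 CPM in WT libraries, and 0.06 in NL against WT skin (unadjusted p = 0.716). Whether the difference in *Glo1* came with the transgene or with the original strain was not tested. Of the 10 genes higher in NL skin, 4 (*Rab25*, *Nkpd1*, *Gsdma*, *Sox21*) had too few counts in nodes to be tested, and the others had log2 fold changes of -0.15 (*Cdc25b*) to 0.40 (*Tgm1*, unadjusted p = 0.0558). Of the 14863 genes tested in both tissues, 46.7% had the same sign of fold change.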

How the data were processed

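Poly(A) RNA of whole skin and lymph nodes was sequenced in 151-base pairs. Expected counts per gene, estimated by the authors with RSEM, were deposited as whole numbers, and the submitters' processing notes name cutadapt 4.8, FastQC 0.11.8, STAR 2.7.8a, RSEM 1.3.3, MultiQC 1.20 and GRCm38. The annotation release is not given in the sources used here. Gene coordinates come from GENCODE M21 (GRCm38), where 264 gene IDs had no match, and promoters from RefSeq.

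Genes were filtered with filterByExpr (minimum count 10, minimum total 15) and tested with edgeR 4.0.16 in R 4.3.3: TMM normalisation, quasi-likelihood F test with robust estimation, 1 fit of the 9 skin libraries, contrast NL minus WT, Benjamini-Hochberg adjusted p under 0.05. Over the lymph nodes, genotype was tested across untreated and UVB-treated libraries. DESeq2 1.42.0 was an alternative, as were RLE and upper-quartile scaling, other filters, NL and WT libraries fitted alone, *Xist* as a covariate, muscle, fat and hair genes left out, and each library left out in turn. The edgeR fit was checked on simulated counts. DESeq2 was run on the same simulated counts, but no criterion was set for it.

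The gene lists (39 in all) and the comparison were chosen with earlier results of these data known. Named genes are *Ifnk*, *Krt14*, *Mx1*, *Ccl27a*, *Ccl27b*, *Ccr4* and *Cxcl16*, the 10 genes per direction with the smallest p among separated genes of at least 1 CPM, the 10 genes DESeq2 ranked first, the gene called with NL and WT fitted alone, and up to 4 per list with the smallest p. Other list members are named to describe a list and were chosen after their values were seen. A count of 0 allows up to 3 counts, 5.31e-06% to 7.41e-06% of a skin library. Floors cover counting error only, since the reads carry no molecular identifiers. The labels do not say that libraries came from separate animals, so p-values measure the spread between these samples, which may be technical. *Krt85* and *H2-L* were not analysed here.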

Additional observations from a re-analysis of the deposited data

Results flagged for a closer look

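In 2 genes named above, library L 7 stood apart from the other 3 L libraries by Dixon's test at the 95% level. Chance meets that level in about 1 of 20 groups. The number of genes examined is not given, so these 2 genes do not single out L 7. Other genes named above are not covered: in *Plekhb1* the highest L library also lay far above the other 3. *Cxcl16* was at 35.6 CPM in L 7 and between 73.1 and 75.5 CPM in the other L libraries. *Gadd45g* was at 18.9 CPM in L 7 and between 12.6 and 13.2 CPM in the others. The groups of NL and WT skin have 2 and 3 libraries and were not examined in this way.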

How the results depend on the processing

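No paired analysis was possible because NL and WT skin libraries come from mice of different genotypes. In edgeR's test of NL against WT skin no gene had an adjusted p under 0.05 with any library left out (0 to 0 genes), or under other scalings, filters or covariates. The count was 80 with DESeq2 (63 higher), 80 with its default filtering (62 higher), 1 with NL and WT fitted alone and 1336 with DESeq2 on these alone (799 higher). Genes with an unadjusted p under 0.05 numbered 698 to 1882 with 1 library left out, among them 890 without WT 9, 930 without WT 10, 890 without NL 2 and 698 without NL 3. They numbered 595 without NL 3 and L 6 (386 higher), 3092 with NL and WT alone (1673 higher) and 3295 with DESeq2 on these alone (1641 higher). Of the 1465, 1042 were higher, compared with 885 of 1435 under RLE, 870 of 1421 under upper-quartile scaling, 971 of 1594 without a filter, 723 of 1332 with at least 10 counts in every library, and 980 of 1691 with DESeq2. Scalings moved the median of all genes to no lower than -0.04. The interferon-stimulated list had a median of -0.96 without NL 3, -0.96 without NL 3 and L 6, and between -0.96 and -0.043 over libraries left out, while the cornified median stayed between 0.79 and 0.99. L against NL skin gave 1182 (without NL 3) to 5187 genes, with 1470 without NL 2. Lymph nodes gave 13 genes with DESeq2 and 0 to 3 with a library left out. Of 135 values of named genes under alternatives, 5 had an adjusted p under 0.05, all with DESeq2 on NL and WT alone, and 2 were opposite in sign. The cause of these differences was not tested. The alternatives that left out NL 3 with L 6, ran DESeq2 on NL and WT alone or used its default filtering were chosen after seeing the data. With 1 NL library left, that library is assumed to vary like the other groups.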
